A study of Mus musculus with 6 samples.

Results

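The expressed unannotated loci are the rows of the deposited gene table that carry no gene name and whose mean over the 6 libraries was at least 0.2 CPM (a count divided by its library's total and multiplied by 1000000). Of 60832 features in the table, 5473 were unannotated loci, and 2290 of these reached the threshold. The members were therefore chosen by their abundance in these same libraries, so that their levels are a description and carry no test. The table gives each such locus an identifier made of a shared prefix and a number, and a locus is named below by that number, with the prefix left off.

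The libraries are bulk RNA-seq of mouse liver sinusoidal endothelial cells (LSECs), the fenestrated endothelium that lines the liver's capillaries, isolated from colorectal cancer liver metastasis (CRCLM) xenografts of the human HCT116 colon carcinoma line. Both groups came from male BALB/c-Nu mice, which lack a thymus. The study's methods give their age as 4 to 6 weeks when obtained, before tumour growth and treatment, so that they were older at harvest. In both groups the cells were pulled out with beads against CD146 and cultured for 24 h. The 3 bevacizumab-resistant libraries came from xenografts of mice that had received bevacizumab, an antibody against VEGF-A. It was given at 10 mg/kg by repeated intraperitoneal injection over several weeks. The 3 bevacizumab-sensitive libraries came from xenografts not made resistant. The vehicle animals of the study received IgG. The labels number the libraries of each group from 1 to 3 and do not say that each came from its own animal, so that the p-values below measure the spread between these samples, which may be technical.

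Transcript assembly joins reads that lie outside the known genes into additional loci. As a class, such loci can hold long noncoding RNAs that no catalogue lists, extensions of known genes, and transcribed repeats, and they are usually shorter and less abundant than protein-coding messages. The table used here gives them no position, symbol, description, gene ontology term or pathway, so that neither their place in the genome nor their sequence is shown, and the sole structural feature that could be recovered was the length, from the ratio of count to FPKM (fragments per kilobase of feature and 1000000 counts).

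The libraries held between 17599326 and 20726684 counts, at which 3 counts, the limit that a count of 0 allows, stand for 0.145 to 0.170 CPM. The 13 LSEC markers summed to 281 to 706 CPM and the 12 pan-endothelial markers to 52.6 to 448, against 35895 to 51364 CPM for 18 macrophage and Kupffer cell markers. The labelled cell type was thus detected but was not the main marker signal of any library. In a bulk library, fewer cells of a type and less RNA per cell cannot be told apart.

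Replicate 2 of the sensitive group stood apart from every other library in the unannotated loci. Of the 5473 loci taken without any threshold, 5263 had at least 1 count in that library, against 1791 to 2613 in each of the other 5. It alone counted 1657 of them, whereas the other libraries each had between 2 and 7 loci that no other library counted. This description does not depend on the abundance threshold, but it does depend on how the loci entered the table, which is not given.

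Among the 2290 expressed loci, 2211 were counted in sensitive replicate 2 and between 1368 and 1696 in the others. The median count of a member was 23 in sensitive replicate 2, 3 in sensitive replicate 1 and resistant replicate 1, 2 in sensitive replicate 3 and resistant replicate 2, and 1 in resistant replicate 3. The typical member was therefore at or under the counting floor outside sensitive replicate 2. This library held the highest CPM of 1887 members (82.4%), and each of the others that of 42 to 108.

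For 1492 members (65.2%), over 50% of the CPM summed over the 6 libraries lay in sensitive replicate 2, which was the case in another library for between 1 and 19 members. A further view is the number of loci that the library carried past the threshold. At 0.2 CPM or more in sensitive replicate 2 and in no other library were 892 members, and 241 members had counts in that library alone. In every one of the 6 libraries, 425 members reached 0.2 CPM.

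Without sensitive replicate 2, 922 unannotated loci had a mean of at least 0.2 CPM, of which 910 are members and 12 are not. Leaving out any other library instead gave 2937 to 3064 loci. The catalogue of expressed unannotated loci was in this sense largely set by 1 of the 6 libraries. The same library had the highest summed CPM of neutrophil markers (6832, against 335 to 5220 in the others), of acinar markers (91.8 against 9.05 to 44.9), of T and NK cell markers (10.8 against 0.101 to 2.34) and of erythroid markers (10.5 against 0.253 to 4.33). B and plasma cell markers were also highest there, by little (2.90 against 0.468 to 2.72). The macrophage and Kupffer cell, LSEC, pan-endothelial, hepatocyte, and stellate and fibroblast lists were each highest in another library. In the lists highest there, 7 of the 8 acinar genes and 6 of the 6 T and NK cell genes had no count in at least 1 library. So did 4 of the 5 erythroid genes and 5 of the 6 B and plasma cell genes. Every neutrophil gene was counted in all libraries. The part of these differences in the spread of the loci was not tested.

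**Figure D1:**
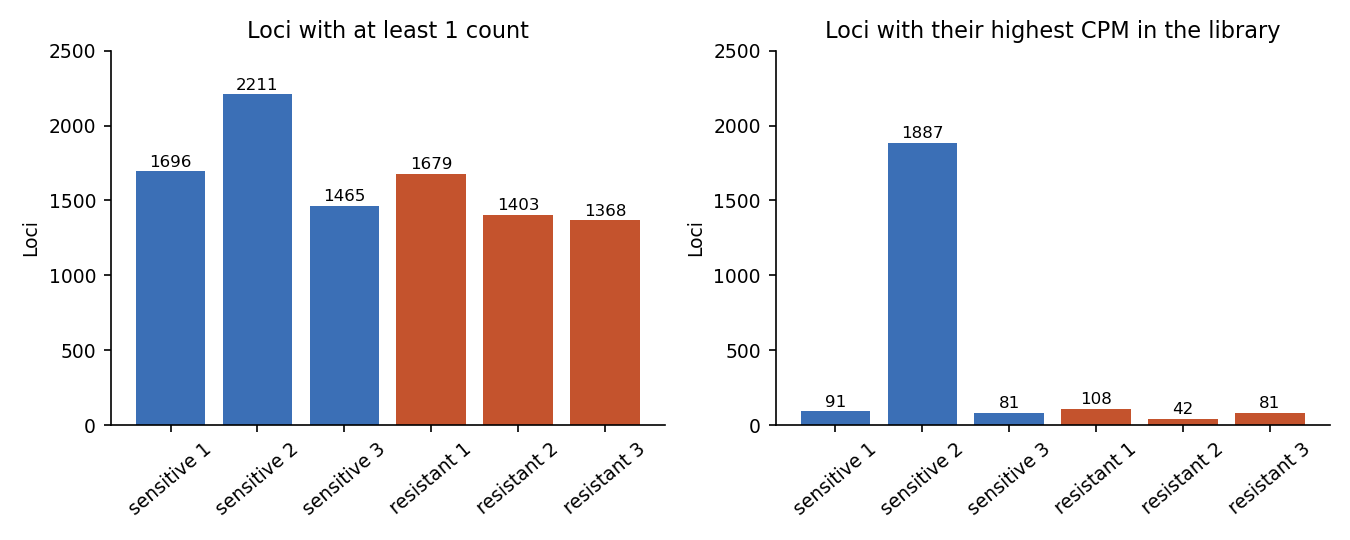
Number of the 2290 expressed unannotated loci with at least 1 count (left) and with their highest CPM (right) in each library, in blue for the sensitive and in orange for the resistant group. Sensitive replicate 2 counted 2211 of the loci and held the highest CPM of 1887.

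At the threshold, members and other loci were close in mean CPM. The members just inside it were locus 27116 (mean 0.2003 CPM), with 4, 15 and 3 counts in the sensitive libraries 1 to 3 and no count in the resistant ones, locus 1907 (0.2003 CPM), with 1, 16 and 2 counts against 3, 0 and 0, and locus 1331 (0.2004 CPM), with 3, 15 and 2 counts against 1, 0 and 1. Just outside it were locus 30864 (0.1999 CPM), with 0, 15 and 4 counts against 1, 0 and 2, locus 14180 (0.1998 CPM), with 14, 0 and 8 counts against 2, 0 and 0, and locus 35924 (0.1997 CPM), with 1, 15 and 5 counts against 0, 0 and 1. In 5 of these 6 loci the 15 or 16 counts of sensitive replicate 2 made up most of the total.

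Most members were rare. The median of their mean CPM was 0.308, with quartiles at 0.237 and 0.596, and 1101 members lay under 0.3 CPM. Few were abundant, with 374 members at 1 CPM or more, 62 at 10 or more and 6 at 100 or more. Together the members took 0.559%, 0.696% and 0.631% of the counts of the sensitive libraries 1 to 3, and 0.589%, 0.466% and 0.795% of those of the resistant libraries 1 to 3. The 95% Wilson intervals of these shares reach at most 0.00397 percentage points to either side and cover counting error only. Replicate 3 of the resistant group had the highest share and replicate 2 of the same group the lowest.

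The summed level did not separate the groups. It was 5586, 6963 and 6313 CPM in the sensitive libraries and 5893, 4661 and 7947 CPM in the resistant ones, with means of 6287 ± 689 and 6167 ± 1660 (SD, n = 3 in each group). The log2 ratio of the resistant over the sensitive mean was -0.03. A large part of the sum lay in 3 loci, which made up 18.0% of the members' counts in sensitive replicate 2 and 42.2% to 61.9% in the other libraries. Without these 3, the sums were 3206, 5708 and 2780 CPM in the sensitive and 3407, 2610 and 3025 CPM in the resistant libraries, and sensitive replicate 2 was then the highest of all.

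The most abundant member, locus 17299, is 6069 nt long and ranked 65 of all features by mean CPM. It had 935, 399 and 1724 CPM in the sensitive and 819.5, 753 and 2255 CPM in the resistant libraries. Locus 6031, of 4717 nt, had 601, 227 and 1299.9 CPM in the sensitive and 760.2, 530.2 and 1886 CPM in the resistant libraries. In both loci resistant replicate 3 was highest, sensitive replicate 3 next and sensitive replicate 2 lowest, and the groups overlapped.

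Locus 21463 was the third and differed in kind. At 494 nt it reached 843, 629 and 508 CPM in the sensitive and 906, 769 and 781 CPM in the resistant libraries, which per length was 1707, 1273 and 1028 FPKM and 1834, 1556 and 1581 FPKM. Its mean of 1497 FPKM ranked 23 among all features of the table, protein-coding genes included. Its coefficient of variation (CV, the SD over the mean) was 19.8% over the 6 libraries, against 60.7% for locus 17299 and 68.4% for locus 6031. Of the 3 most abundant members it was thus the steadiest.

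Of the 12 most abundant members, 4 had their lowest CPM in sensitive replicate 2, 2 had their highest there, and in the others it was no extreme. Locus 33372, of 352 nt, had 158, 83.5 and 51.7 CPM in the sensitive and 183, 172 and 155 CPM in the resistant libraries. Locus 17032, of 519 nt, had 169, 122 and 65.2 CPM against 144, 119.9 and 118.5 CPM. In both, sensitive replicate 3 was the lowest library.

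Locus 38448, of 2832 nt, had 73.7, 384 and 58.4 CPM in the sensitive and 105, 50.9 and 65.3 CPM in the resistant libraries. Locus 37297, of 375 nt, had 20.1, 181 and 34.3 CPM against 20.1, 27.4 and 26.2 CPM. These 2 were the members among the 12 that were highest in sensitive replicate 2, at 5.53 and 6.76 times their median over the 6 libraries. Without this library their CVs went from 105% and 124% to 29.6% and 23.1%.

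Locus 16472, of 1929 nt, was highest in resistant replicate 2, at 163 CPM, and lowest in resistant replicate 1, at 11.7 CPM, with 62.1, 32.8 and 53.5 CPM in the sensitive libraries and 80.4 CPM in resistant replicate 3. Locus 19722, of 4471 nt, had 42.2, 41.5 and 119.96 CPM in the sensitive and 64.3, 96.2 and 43.6 CPM in the resistant libraries. Their values cross between the groups, and the extremes lie in different libraries from one locus to the next. Locus 21164, of 6853 nt, had 91.5, 89.7 and 42.9 CPM in the sensitive and 53.3, 21.8 and 19.5 CPM in the resistant libraries, and its groups overlapped in 1 pair of libraries. The remaining 2, loci 27892 and 9337, did not overlap between the groups and are given with the group comparison.

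**Figure D2:**
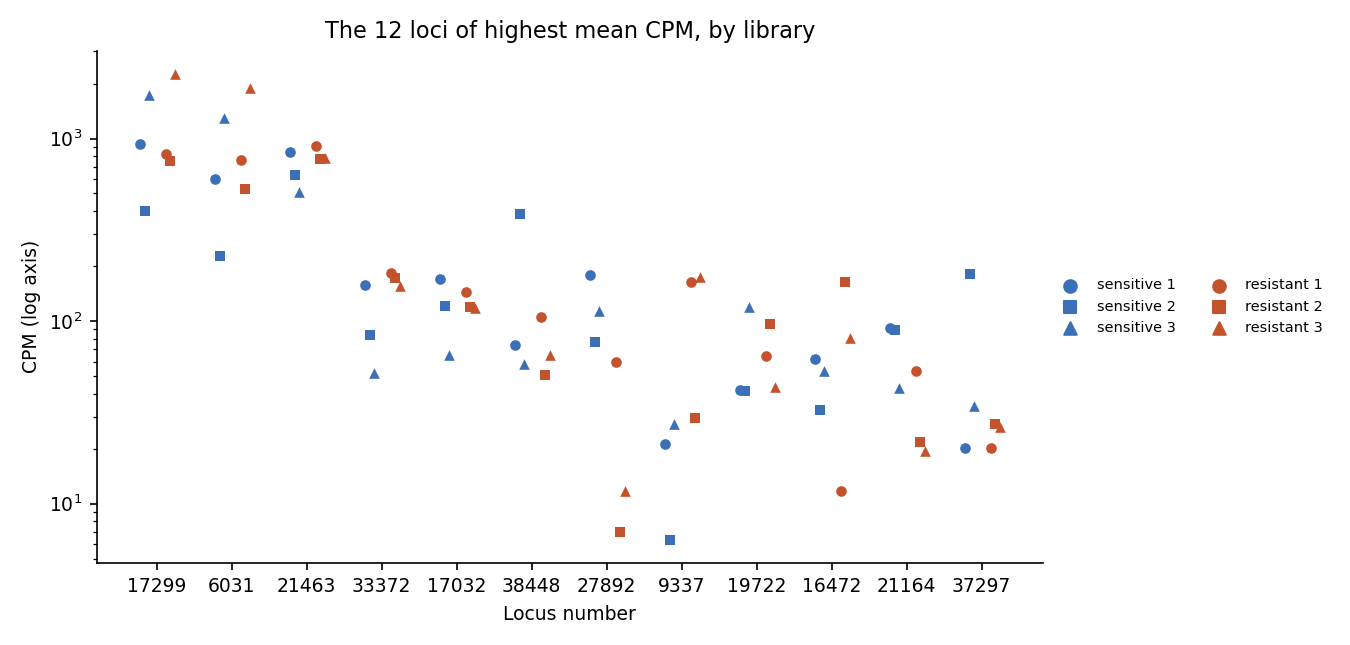
CPM (log axis) of the 12 unannotated loci of highest mean CPM in each library, with blue symbols for the sensitive and orange ones for the resistant libraries and circles, squares and triangles for replicates 1, 2 and 3. Loci 38448 and 37297 have a sensitive replicate 2 far above the other libraries, whereas loci 17299 and 6031 have it lowest.

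Length followed this difference. The median member was 312 nt long (quartiles 258 and 525 nt, range 200 to 27033 nt), and the median locus under the threshold 275 nt. Of 1045 members of 200 to 299 nt, 95.1% were highest in sensitive replicate 2, and this share was 90.2% of the 640 members of 300 to 499 nt, 70.7% of the 334 members of 500 to 999 nt and 43.4% of the 122 members of 1000 to 1999 nt. It was 21.7% of the 115 members of 2000 to 4999 nt and 5.88% of the 34 members of 5000 nt or more. The longest members were more often lowest than highest there: sensitive replicate 2 had the lowest CPM of the 6 libraries for 53 of the 115 members of 2000 to 4999 nt (46.1%) and for 21 of the 34 members of 5000 nt or more (61.8%), against 18 of the shortest 1045 (1.72%).

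Summed over members, the shortest class reached 1254 CPM in sensitive replicate 2 and 97.2 to 154 CPM in the other libraries. The longest class ran the other way, with 862 CPM in sensitive replicate 2 and 1281 to 2877 CPM in the others. The median share of a member's summed CPM that lay in this library went from 78.7% in the shortest class to 8.24% in the longest. These are descriptions of loci that share their libraries, and short members were also the rarest, with a median mean of 0.250 CPM at 200 to 299 nt against 14.3 CPM at 5000 nt or more. Since the mean over the 6 libraries chose the members, a locus counted in 1 library alone could enter only if its level there was at least 6 times the threshold.

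**Figure D3:**
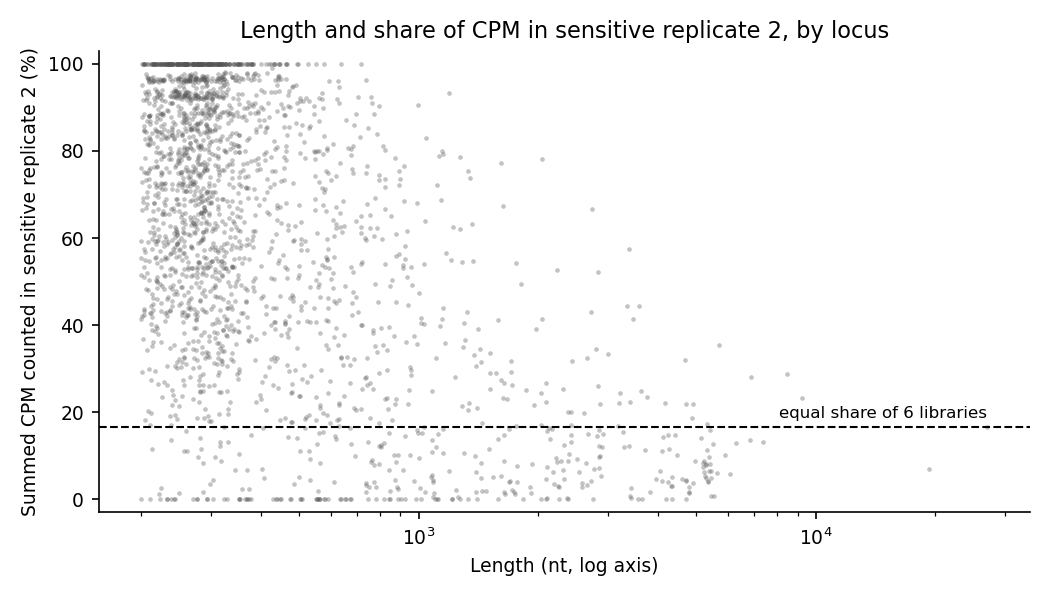
Share of each expressed unannotated locus's summed CPM that was counted in sensitive replicate 2 (vertical axis, percent) against its length (horizontal axis, nt, log scale), 1 point per locus. The share is above 50% for most loci under 500 nt and below the dashed line, which marks an equal share among the 6 libraries, for most loci of 2000 nt or more.

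Annotated features of the same abundance did not have such shares. At a mean of 0.2 to under 0.3 CPM, 95.2% of the 1101 unannotated loci were highest in sensitive replicate 2, against 31.3% of 396 long noncoding RNA genes, 35.7% of 230 pseudogenes and 30.5% of 478 protein-coding genes. At 0.3 to under 1 CPM the share was 85.2% of 815 unannotated loci and between 31.4% and 39.1% in these 3 classes. At 1 to under 10 CPM it was 41.0% of 312 unannotated loci and 22.4% to 38.2%, and at 10 CPM or more 27.4% of 62 unannotated loci and 24.4% to 44.6%, so that abundant unannotated loci lay within the range of the annotated classes. The difference among rare features was not tested, and the classes also differ in length: the median unannotated locus of 0.2 to under 0.3 CPM had 274 nt, against 639 nt or more in each annotated class. Whether the loci were assembled from these same libraries is not given. If they were, their place in the table depends on these reads, as that of annotated genes does not.

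**Figure D4:**
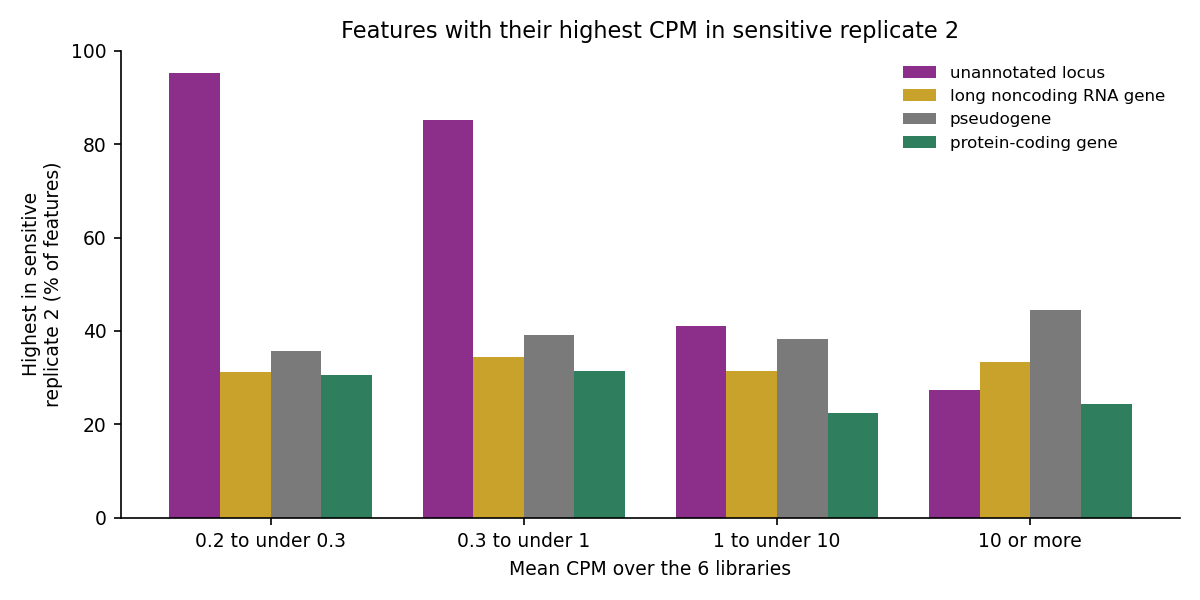
Percent of features with their highest CPM in sensitive replicate 2, by mean CPM over the 6 libraries, for unannotated loci (purple), long noncoding RNA genes (yellow), pseudogenes (grey) and protein-coding genes (green). Unannotated loci reach 95.2% and 85.2% in the 2 lower bins and are at 27.4% at 10 CPM or more, within the range of the other classes.

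The spread over libraries was wide even where this library was left out. The median CV of the members was 151% over the 6 libraries and 86.9% over the 5 libraries other than sensitive replicate 2, for the 2049 members with a count there. Among members of 10 CPM or more it was 47.3% with and 32.4% without that library, against 24.1% and 12.6% for the 8779 protein-coding genes of 10 CPM or more. Long noncoding RNA genes of 10 CPM or more had 31.7% and 20.1%, and pseudogenes 33.0% and 21.6%. This bin has no upper limit, and abundance within it was not matched. At 0.3 to under 1 CPM the gap was smaller. There the median CV without that library was 69.9% for members and 58.5% for protein-coding genes. It was 48.1% for long noncoding RNA genes and 47.6% for pseudogenes.

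Some members switched between present and absent. Of 380 members that reached 50 counts in at least 1 library, 76 (20.0%) had at most 1 count in another, against 309 of 12724 annotated features (2.43%), a comparison chosen after the values were seen. Without sensitive replicate 2 it was 17 of 271 members (6.27%) and 68 of 12449 annotated features (0.546%). Of the 76, 46 were highest in sensitive replicate 2, with a median length of 545 nt, and another 26 had at most 1 count there, with a median length of 2062.5 nt. The library thus stood at both ends of this group, and neither difference was tested. Members and annotated features were not matched for abundance here: 62 members had a mean of at least 10 CPM, against 8779 protein-coding genes. A feature that just reaches 50 counts falls to 1 or 0 more easily than an abundant one.

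Locus 38398, of 428 nt, had 1, 243 and 0 counts in the sensitive and 2, 0 and 0 counts in the resistant libraries, and locus 21656, of 1193 nt, had 2, 107 and 0 against 5, 2 and 0. Locus 6227, of 4353 nt, had 0, 0 and 1 counts in the sensitive and 0, 4 and 271 counts in the resistant libraries. In these 3 loci 93.2% to 98.9% of the summed CPM lay in 1 library.

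Others were shared by 2 libraries and missing from the rest. Locus 31147, of 2097 nt, had 80 counts in sensitive replicate 3 and 81 in resistant replicate 1, and no count in the other 4 libraries. Locus 14186, of 506 nt, had 147 counts in resistant replicate 1 and 83 in resistant replicate 3, 2 in sensitive replicate 3 and none in the other 3 libraries. The first pair holds a library of each group and the second holds 2 resistant libraries.

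At the other end, 5 members of at least 1 CPM had the smallest CVs. Locus 20502, of 924 nt, had 51.1, 42.4 and 46.7 CPM in the sensitive and 52.8, 48.7 and 47.4 CPM in the resistant libraries, a CV of 7.56%. Loci 37226 and 17408 had CVs of 9.98% and 12.2% at means of 4.23 and 31.0 CPM, and loci 4404 and 35525 both 13.0%, at 3.55 and 1.38 CPM. These 5 were 924 to 6815 nt long, and none had its highest library in sensitive replicate 2. Their log2 fold changes of resistant over sensitive lay between -0.15 and 0.09. Such small differences follow from the choice by smallest CV over these same libraries.

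The group comparison asks whether LSECs from resistant xenografts held other levels of these loci than those from sensitive ones. By edgeR's quasi-likelihood test over all 15474 features that passed the filter on low counts, no member had an adjusted p-value under 0.05, as was so for 0% of all features tested, and the smallest adjusted p of a member was 0.940. Only 551 members (24.1%) passed that filter and 1739 were not tested. Since the rule favored loci that are high in sensitive replicate 2, which belongs to the sensitive group, the direction of the members' differences is partly fixed by how they were chosen.

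At an unadjusted p under 0.05, 23 members (4.17% of those tested) lay higher and 50 (9.07%) lower in the resistant libraries, beside 0.536% and 2.54% of all features tested. The median log2 fold change of the members tested was -0.45, beside 0.01 for all features tested. Without sensitive replicate 2, 22 members lay higher and 28 lower among 576 tested, beside 1.2% and 2.76% of 15965 features, no member had an adjusted p under 0.05 (smallest 0.984), and the median was -0.13. Of the members with an unadjusted p under 0.05, 37 were shared by both fits, which is 50.7% of the list with and 74.0% of the list without this library. Of the 551 members, 108 changed direction without it.

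Without a model, the members' share lay above that of all features in the lower direction and below it in the higher one. In 204 members (8.91%) every resistant library lay below every sensitive one in CPM, and in 49 (2.14%) above, beside 4.05% and 4.65% of the 19656 features with a mean of at least 0.2 CPM. Without sensitive replicate 2, when fewer libraries make non-overlap easier, these counts were 240 (10.5%) and 132 (5.76%), beside 9.93% and 8.19%. Of the 2290 members, 1685 were under 500 nt long. These held 149 of the 204 lower members, about in proportion to their number, and 9 of the 49 higher members, fewer than in proportion. The share of all features by length was not computed. Among the 34 members of 5000 nt or more, 3 were lower and 5 higher. For a single locus, an exact two-sided permutation test of 3 against 3 libraries cannot go below 0.1.

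DESeq2 on the same features, 551 of them members, called 6 members higher and 1 lower in the resistant libraries at an adjusted p under 0.05. Of the 15448 features to which it gave an adjusted p, it called 8 higher (0.0518%) and 16 lower (0.104%). These counts include the members. The calls thus rest on the choice of test, and edgeR gave an adjusted p of 0.940 for each of these 7. Of the 6 higher members, locus 33778, of 3428 nt, had 0.509, 0.227 and 0.584 CPM in the sensitive and 5.93, 12.4 and 39.3 CPM in the resistant libraries. Its log2 fold change was 5.38 ± 0.85 (SE) by edgeR, with an unadjusted p of 0.000368, the smallest of any member, and 5.41 by DESeq2 with an adjusted p of 3.63e-09. Every resistant library held at least 123 counts of it and no sensitive one more than 12. The libraries of 1 group alone can meet the filter on low counts, even for a locus near 0 in the other group. Loci 33778, 23721, 31566, 9550 and 1059, and loci 16864 and 13413 named below, each had under 10 counts in at least 1 library of their lower group. Their p-values and fold changes are therefore given as descriptions.

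Locus 28812, of 1441 nt, had 0.611, 0.852 and 0.730 CPM in the sensitive and 5.21, 7.99 and 31.6 CPM in the resistant libraries, a log2 fold change of 4.27 ± 0.80 (SE). Locus 23721, of 560 nt, had 2, 0 and 2 counts in the sensitive and 36, 62 and 241 counts in the resistant libraries. Pooled over each group's libraries this is 82.0 times the share of counts (95% exact interval 31.7 to 303, counting error only). It was also the single member with an adjusted p under 0.05 (0.0396) when edgeR was run with no filter on low counts.

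Locus 31566, of 1085 nt, had 0.509, 0.114 and 0.876 CPM in the sensitive and 2.17, 5.46 and 13.9 CPM in the resistant libraries. Locus 9550, of 1475 nt, named after its values were seen because DESeq2 called it, had 0.764, 0.341 and 0.146 CPM against 1.45, 2.98 and 11.2 CPM. In all of these 5 loci the highest library was resistant replicate 3 and the lowest resistant library was replicate 1. Without resistant replicate 3, the log2 fold changes of loci 33778, 23721, 28812, 31566 and 9550 were 4.33, 5.03, 3.10, 2.90 and 2.38, against 5.38, 6.25, 4.27, 3.80 and 3.59 with all libraries. Locus 31566 was also at 4.48 without sensitive replicate 3, and locus 9550 at 4.27 without sensitive replicate 1. Locus 9337, of 4789 nt and among the 12 most abundant, had 21.3, 6.36 and 27.2 CPM in the sensitive and 165, 29.5 and 174 CPM in the resistant libraries, a log2 fold change of 2.70 ± 0.74 (SE). Its lowest resistant library stood just above the highest sensitive one, and the other 2 were far above both.

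Locus 38246, of 5215 nt, was also among the 5 higher members of smallest unadjusted p, and was called by neither tool. It had 10.9, 5.91 and 10.9 CPM in the sensitive and 19.6, 20.8 and 25.1 CPM in the resistant libraries. Its log2 fold change of 1.20 ± 0.28 (SE) was the smallest of the 5, and its resistant libraries were the closest to one another.

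Of the lower members, locus 1059, of 665 nt, had 12, 88 and 11 counts in the sensitive and 1, 0 and 0 counts in the resistant libraries. The sensitive libraries thus held 115 times the pooled share of counts (95% exact interval 20.2 to 4571, counting error only), and DESeq2 gave it an adjusted p of 0.0336. Sensitive replicate 2 held 80.7% of its summed CPM, and without it the fitted log2 fold change moved from -6.65 to -4.66, and without resistant replicate 1, the only resistant library with a count, to -8.43. Locus 27892, of 5305 nt and among the 12 most abundant, had 179, 77.3 and 113 CPM in the sensitive and 59.3, 7.03 and 11.8 CPM in the resistant libraries. Its log2 fold change was -2.31 ± 0.76 (SE) with all libraries and -2.51 without sensitive replicate 2, with an unadjusted p of 0.0190. Without resistant replicate 1, its highest resistant library, the fitted value was -3.71.

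Loci 16864, 34891, 28037 and 13413 completed the lower members of smallest unadjusted p. Locus 16864 had 2.55, 2.90 and 2.04 CPM in the sensitive and 0.338, 0.759 and 0.520 CPM in the resistant libraries, and locus 34891 had 2.14, 4.09 and 2.38 CPM against 0.772, 0.759 and 1.04 CPM. Locus 28037 had 15.8, 31.6 and 20.4 CPM against 9.60, 11.3 and 8.63 CPM, and locus 13413 had 3.21, 4.20 and 2.48 CPM against 1.30, 0.910 and 0.364 CPM. In each of them no library of one group overlapped the other, and sensitive replicate 2 was the highest library. Without it their log2 fold changes were -2.06, -1.39, -0.88 and -1.72, against -2.27, -1.84, -1.30 and -2.03 with all libraries. Since the groups do not overlap, leaving out 1 library could not turn the direction of the CPM difference. Loci 16864 and 13413 each had only 7 counts in their lowest resistant library, so that their values are descriptions.

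**Figure D5:**
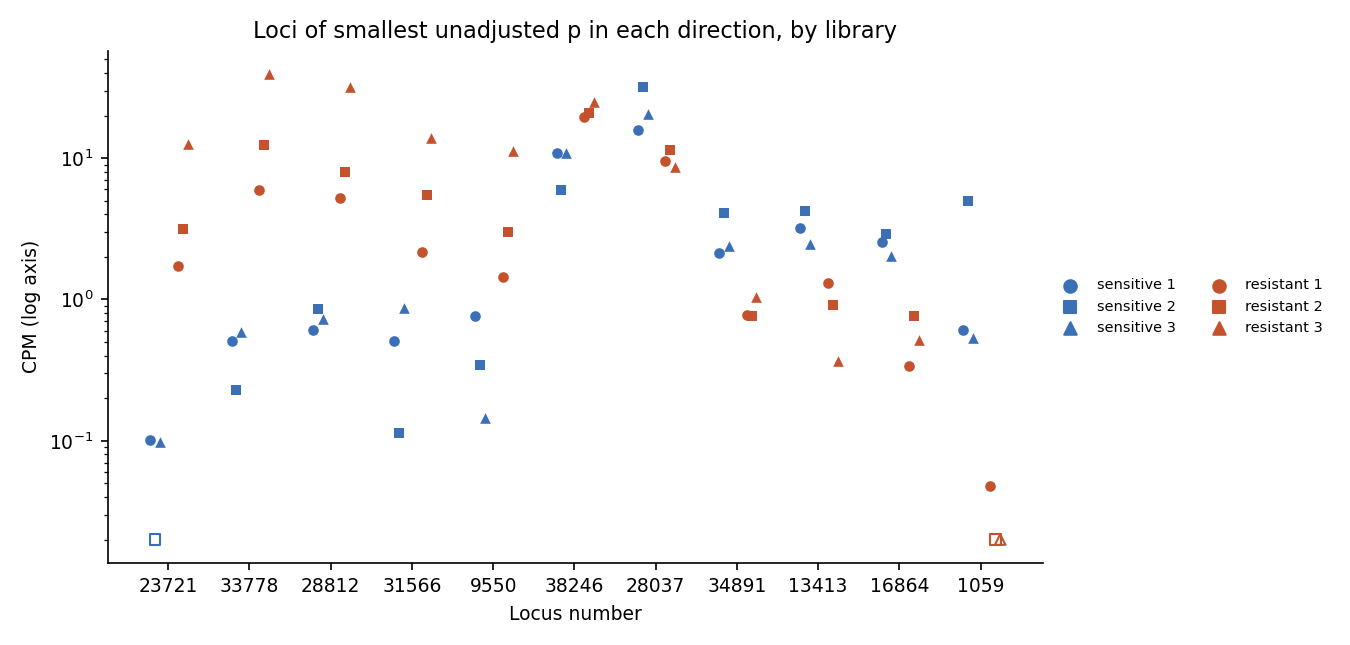
CPM (log axis) in each library of the 5 higher and 5 lower members of smallest unadjusted p and of locus 9550, ordered by log2 fold change, with blue symbols for sensitive and orange ones for resistant libraries, circles, squares and triangles for replicates 1, 2 and 3, and open symbols at the foot of the axis for libraries with no count. The groups do not overlap in any of the 11 loci, and resistant replicate 3 is the highest library in the 6 loci on the left.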

How the data were processed

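RNA-seq was analysed in 6 bulk libraries, 3 per group. The authors aligned reads with HISAT2 2.0.5 and counted them with featureCounts 1.5.0-p3, and the deposited table holds raw counts and FPKM values per feature. How the unannotated loci were assembled, the strand setting of the counting and the annotation are not given in the sources used here. The labels name ribosomal RNA depletion, and the study's methods name poly(A) selection as well. The processing notes name build mm9, and no coordinates were used. A further deposited table of group means with the authors' fold changes and p-values was not used. Biotypes of annotated features come from GENCODE by Ensembl ID.

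CPM was computed from the column totals, and lengths from count and FPKM, which gave whole numbers. A fit across all features used edgeR 4.0.16 (R 4.3.3) with filterByExpr, TMM normalization, a robust quasi-likelihood test and Benjamini-Hochberg adjustment, two-sided, and was tested on simulated data. Libraries of a group differed by more than sampling noise. Alternatives were DESeq2 1.42.0, limma 3.58.1 (voom), other scalings and filters, a replicate block, and leaving out each library. Depth is given with the results.

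The members and lists were chosen with earlier results of these data known. Named were the 12 members of highest mean CPM, up to 5 higher and 5 lower of smallest unadjusted p, the 5 of at least 1 CPM with the largest ratio of highest library to median, the 3 on each side of the threshold, and the 5 of at least 1 CPM with the smallest CV. The rule also provided for members near or aligned to annotated genes, for which no positions or sequences were used here. Loci are named by the number of their identifier.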

Additional observations from a re-analysis of the deposited data

How the results depend on the processing

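No member had an adjusted p under 0.05 under 11 of the 13 alternatives to the edgeR fit. The exceptions were DESeq2, with 7, and no filter on low counts, with 1. The count at an unadjusted p under 0.05 was 73 (31.5% of it higher), 13.2% of members tested beside 3.08% of all features tested. It was 623 with no filter (5.14% higher), 27.2% beside 5.98%. With at least 10 counts in every library it was 35, 13.6% beside 3.22%. With limma-voom it was 45 (48.9% higher), 8.17% beside 2.40%. With 1 library left out it was 28 to 144. The lowest was without resistant replicate 3 (4.02% beside 1.03%) and the highest without sensitive replicate 3 (20.9% beside 6.53%). The median log2 fold change was -0.45 and became -2.19 with no filter, and -0.80 to -0.13 with 1 library left out, the highest without sensitive replicate 2. Non-overlapping members numbered 253, and 346 to 751 with 1 library left out, which by its construction makes non-overlap easier. For a library left out, the share over all features was computed only for sensitive replicate 2, as given above. The number of loci was 2290, and 4818 at a threshold of 0.1 CPM, 681 at 0.5 CPM, 914 by the median over libraries and 922 to 3064 with 1 library left out. The log2 ratio of the summed CPM stayed within the spread of libraries, at -0.25 to 0.14 with 1 library left out and -0.37 without the 3 most abundant members, the latter chosen after seeing the data. The causes of these moves were not tested.

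Deviations from the group means had correlations of -0.000932, 0.0343 and 0.194 between same-numbered libraries, against -0.129 to 0.0775 between libraries of unlike number. The labels do not say whether the samples were paired, and these values cannot settle it. With the replicate number as a block, 0 members had an adjusted p under 0.05 and 55 an unadjusted one (43.6% higher). This was 9.98% of members tested, beside 3.02% of all features tested, and the members' median log2 fold change was -0.36.

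For the 28 named members tested, 326 of 357 log2 fold changes under alternatives kept direction and side of the threshold. A further 8 passed the threshold under DESeq2 or no filter. Where a member's groups do not overlap, leaving out 1 library cannot turn the direction of its CPM difference. With 1 library left out, the range crossed 0 in 8 members: locus 17299 (-0.41 to 0.92), 6031 (-0.18 to 1.34), 17032 (-0.25 to 0.29), 38448 (-1.82 to 0.15), 19722 (-0.42 to 0.63), 16472 (-0.14 to 1.30), 17408 (-0.092 to 0.095) and 4404 (-0.047 to 0.22). Locus 19722 (-0.05) also turned to 0.0013 with library totals, 0.0016 with no filter, 0.048 with limma-voom and 0.085 with the block, locus 20502 (0.02) to -0.0030 with at least 10 counts, and locus 17408 (-0.0020) to 0.051 with totals and 0.067 with no filter. Location classes, their distances and strand, and the sum without members overlapping an annotated gene were not run, since no positions were used. The filter on low counts left 1739 members untested.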

Other observations

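The 3183 unannotated loci under the threshold were short, with a median of 275 nt over the 3152 with a length and 90% of them at or under 337 nt, and 31 unannotated loci had no count in any library. All unannotated loci held 0.919% of the counts of sensitive replicate 2, of which the members held 0.696%, and in each of the other libraries the loci under the threshold added at most 0.0092 percentage points.

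Identifier numbers ran from 14 to 38539, and 525 pairs of members had consecutive numbers. What the numbers stand for is not given in the sources used here. In 2 such pairs both members had a mean of at least 10 CPM. Loci 38447 (3579 nt) and 38448 (2832 nt) had 130 and 384 CPM in sensitive replicate 2, and 27.5 to 44.0 and 50.9 to 105 CPM in the other libraries. Loci 37322 (19217 nt) and 37323 (27033 nt), the longest members, had their highest CPM in sensitive replicate 3, at 27.0 and 49.9, with 7.05 to 24.7 and 26.2 to 48.7 CPM in the other 5 libraries. In each of these 2 pairs both members were highest in the same library. This was not computed for the other pairs, which include most of the 37 with both members at 1 CPM or more. It was not computed for members of unlike number either. Of all members, 82.4% had their highest CPM in sensitive replicate 2, so that a shared highest library is common among them.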
